A study of Mus musculus with 10 samples.

Results

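Private H3K4me3 promoter regions are described here: 363 of 8494 promoter regions that appeared in the consensus list of DP nEnd alone (186 regions, 194 genes) or of Pdgfra+ nEnd alone (177 regions, 189 genes). The deposited consensus lists of DP, Pdgfra+ and Oct4+ nEnd were joined where they overlapped, which gave 9134 regions. A region was kept where it belonged to 1 list only and touched a promoter, taken as 1000 bp before and 100 bp after the transcription start site (TSS) of a protein-coding transcript (GENCODE release M21, GRCm38). The share of promoter regions private to DP nEnd was 2.19% and that private to Pdgfra+ nEnd was 2.08%. The members were thus chosen by the peaks called in these same libraries, so the presence and rank of peaks in them are given as a description, without a test.

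The libraries were made from naive extra-embryonic endoderm (nEnd), a culture of primitive endoderm (PrE)-like cells derived from mouse embryonic stem cells (ESCs) of the OCT4-mCherry reporter line, without further treatment. In the study's methods, ESCs were differentiated in RACL medium (RPMI with Activin A, CHIR99021 and LIF), and PDGFRA+ cells were grown in it on mouse embryonic fibroblasts. Cells were sorted on mCherry and on PDGFRA at the surface into Oct4+ nEnd, double-positive (DP) nEnd and Pdgfra+ nEnd, and the populations have 4, 3 and 3 libraries. All libraries come from this 1 reporter line, and in a sorted pool fewer marked cells and less mark per cell cannot be told apart.

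Trimethylation of lysine 4 of histone H3 (H3K4me3) is placed at promoters, mostly those rich in CpG dinucleotides, and accompanies transcription initiation. In CUT&Tag an antibody to the mark brings the Tn5 transposase to it, which cuts and tags the DNA there. The PrE is the layer of the blastocyst that forms the yolk sac endoderm. It depends on GATA6 and GATA4, carries PDGFRA, and its visceral derivative takes up nutrients through the cubilin and amnionless receptor complex.

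The libraries held between 3477 and 10545 peaks, with Oct4+ replicate 3 the lowest and Pdgfra+ replicate 1 the highest. The median peak was 2204.5 bp wide in Pdgfra+ replicate 2 and between 3032.5 and 4222.5 bp in the other libraries. The consensus lists held 8101 (DP), 7781 (Pdgfra+) and 7860 (Oct4+) regions, and each was rebuilt exactly by joining overlapping peaks of 3 libraries and keeping what at least 2 of them had. Oct4+ replicate 3 was not among those 3 and its peaks played no part in the choice. The promoters of Pou5f1, Nanog, Sox2 and Esrrb had a peak in all 3 DP and all 4 Oct4+ libraries and in 0 of 3 Pdgfra+ libraries. Those of Pdgfra, Gata6, Gata4, Sox17, Foxa2 and Dab2 had a peak in all 3 DP and all 3 Pdgfra+ libraries. In the 4 Oct4+ libraries, Gata6 had a peak in 3, Sox17 in 2, Pdgfra and Gata4 in 1 each, and Foxa2 and Dab2 in 0. Of 34 fibroblast markers, between 1 and 6 had a promoter peak in a library, with 4 to 5 in DP, 1 to 6 in Pdgfra+ and 1 to 3 in Oct4+ nEnd. Fn1 had a peak in 9 of the 10 libraries, Ccn2 in 8, Col5a1, Timp3 and Twist1 in 5 each and Fbn1 in Pdgfra+ replicate 1. The other 28 had none in any library, among them Col1a1, Col3a1 and Thy1. The part of feeder fibroblasts in the results was not tested.

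The promoter sequences below are those of genes whose private regions are described first: Amn and Cubn, whose regions had no peak in any library of another population; Foxa1 and Aqp8, further PrE genes among the regions private to DP nEnd; and Pdpn and Stra6, from the regions private to Pdgfra+ nEnd. Each run covers 250 bases before to 50 bases after the RefSeq gene start (GRCm38.p6) and is written 5′ to 3′ on the gene's strand. Capitals mark CpG dinucleotides.
Amn, chr12:111270846-111271145, plus strand: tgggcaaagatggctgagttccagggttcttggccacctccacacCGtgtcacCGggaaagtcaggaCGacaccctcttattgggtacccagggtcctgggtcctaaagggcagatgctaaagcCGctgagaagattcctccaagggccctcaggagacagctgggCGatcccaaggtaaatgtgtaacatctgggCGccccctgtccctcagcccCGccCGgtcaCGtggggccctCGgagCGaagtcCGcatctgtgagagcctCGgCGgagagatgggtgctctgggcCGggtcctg
Cubn, chr2:13491827-13492126, minus strand: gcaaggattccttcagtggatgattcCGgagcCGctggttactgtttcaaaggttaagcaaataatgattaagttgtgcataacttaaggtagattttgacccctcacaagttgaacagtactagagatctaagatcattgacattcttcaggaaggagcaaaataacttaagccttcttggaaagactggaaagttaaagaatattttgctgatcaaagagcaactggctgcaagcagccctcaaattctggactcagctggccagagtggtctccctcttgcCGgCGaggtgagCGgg
Foxa1, chr12:57546062-57546361, minus strand: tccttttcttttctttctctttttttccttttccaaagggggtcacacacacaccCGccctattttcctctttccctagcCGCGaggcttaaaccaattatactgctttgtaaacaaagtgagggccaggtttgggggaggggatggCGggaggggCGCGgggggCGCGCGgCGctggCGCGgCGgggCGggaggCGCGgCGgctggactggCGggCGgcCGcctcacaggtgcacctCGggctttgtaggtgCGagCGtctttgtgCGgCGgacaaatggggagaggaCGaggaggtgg
Aqp8, chr7:123462044-123462343, plus strand: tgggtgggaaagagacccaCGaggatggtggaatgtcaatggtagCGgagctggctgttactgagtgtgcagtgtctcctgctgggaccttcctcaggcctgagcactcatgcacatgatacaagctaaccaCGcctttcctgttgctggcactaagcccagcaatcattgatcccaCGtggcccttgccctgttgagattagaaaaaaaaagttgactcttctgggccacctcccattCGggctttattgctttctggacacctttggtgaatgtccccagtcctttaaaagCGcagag
Pdpn, chr4:143299515-143299814, minus strand: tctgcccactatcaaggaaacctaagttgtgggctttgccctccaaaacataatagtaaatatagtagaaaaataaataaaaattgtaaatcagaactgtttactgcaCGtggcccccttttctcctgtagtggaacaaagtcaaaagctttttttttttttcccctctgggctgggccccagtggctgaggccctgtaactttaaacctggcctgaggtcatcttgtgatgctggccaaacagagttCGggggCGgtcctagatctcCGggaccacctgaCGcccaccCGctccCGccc
Stra6, chr9:58133825-58134124, plus strand: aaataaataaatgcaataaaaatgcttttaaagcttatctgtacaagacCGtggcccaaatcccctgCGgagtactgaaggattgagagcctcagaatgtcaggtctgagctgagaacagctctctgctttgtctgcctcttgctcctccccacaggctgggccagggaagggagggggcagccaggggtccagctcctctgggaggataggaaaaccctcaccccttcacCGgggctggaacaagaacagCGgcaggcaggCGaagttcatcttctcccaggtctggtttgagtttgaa

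The windows differed in CpG content. That of Foxa1 held 26 CpG dinucleotides, with a ratio of observed to expected CpG of 0.929. Amn held 15 (ratio 0.515). Cubn held 5 (0.344), Aqp8 6 (0.296), Pdpn 7 (0.399) and Stra6 5 (0.238), so that these 4 promoters were CpG-poor although they carried H3K4me3 peaks. Foxa1 was chosen for display after its values were seen, as were Cubn, Aqp8, Pdpn and Stra6.

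Most regions private to DP nEnd in the consensus lists were not private to the DP libraries. Of the 186, 178 had a peak in DP replicate 1, 185 in replicate 2 and 52 in replicate 3. In Pdgfra+ replicate 1, 184 of them (98.9%) had a peak, close to the 96.6% of all promoter regions with a peak in that library, so that this share is not particular to them. In Pdgfra+ replicates 2 and 3, 0 of them had a peak, against 72.7% and 86.7% of all promoter regions, and the rule allowed no more than 1 Pdgfra+ library at a region. Over all promoter regions the shares with a peak were 90.5%, 94.97% and 84.7% in DP replicates 1, 2 and 3. In Oct4+ replicates 1 to 4 the counts were 76, 6, 0 and 0, with peaks at 90.5%, 85.6%, 37.8% and 52.3% of all promoter regions. The set DP replicates 1 and 2 with Pdgfra+ replicate 1 was present at 175 regions (94.1%), and 43 regions (23.1%) had a peak in all 3 DP libraries. For regions in the DP and Pdgfra+ lists alone, that share was 79.1%. Of regions in the Oct4+ list alone, 25.3% had a peak in all 3 libraries of their consensus. Of all promoter regions, 0.235% had a peak in all 3 DP and in no Pdgfra+ library, and 1 member was among these 20 regions.

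Regions private to Pdgfra+ nEnd had their peaks outside the population mostly in another library. All 177 had a peak in Pdgfra+ replicate 1, 41 in replicate 2 and 152 in replicate 3. In DP replicate 2, 142 (80.2%) had a peak, below the 94.97% of all promoter regions in that library. In DP replicate 1 the count was 1 and in replicate 3 it was 0. The counts in Oct4+ replicates 1 to 4 were 39, 7, 0 and 0. Pdgfra+ replicates 1 and 3 together with DP replicate 2 were present at 122 regions (68.9%), and 16 regions (9.04%) had a peak in all 3 Pdgfra+ libraries. For regions in the DP and Pdgfra+ lists alone, the share with a peak in all 3 Pdgfra+ libraries was 59.8%. DP replicate 2 and Pdgfra+ replicate 1 were the libraries with the most peaks of their populations (8836 and 10545). Across all 9134 regions, the presence of peaks in these libraries deviated from the group means together (Pearson's r = 0.51 across regions, which are not independent replicates, as a description). The part of the number of peaks in these counts was not tested.

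**Figure D1:**
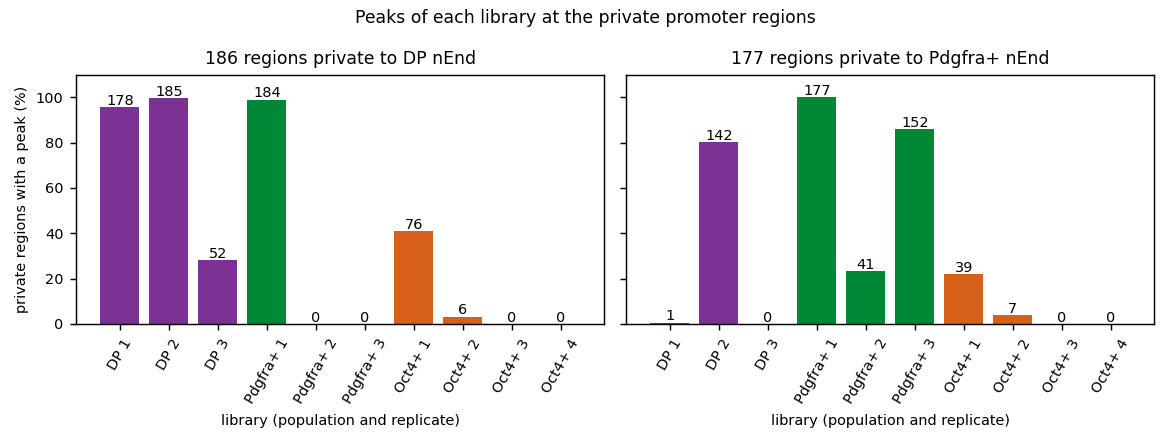
Percent of the 186 regions private to DP nEnd (left) and of the 177 regions private to Pdgfra+ nEnd (right) with a peak in each of the 10 libraries, with the number of regions above each bar. Pdgfra+ replicate 1 held a peak at 184 of the regions private to DP nEnd, and DP replicate 2 at 142 of those private to Pdgfra+ nEnd.

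The complete absence of peaks elsewhere was rare. It was found at 2 of 186 regions private to DP nEnd (1.08%), those of Amn and Cubn, and at 29 of 177 private to Pdgfra+ nEnd (16.4%). The criterion of a peak in all 3 libraries of the population and in none of the other 7 was met by 1 region for DP nEnd (Amn) and 1 for Pdgfra+ nEnd (Zfp90), each 0.0118% of the promoter regions. For comparison, 284 of the 538 regions of the Oct4+ list alone (52.8%) had a peak in a library of another population.

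Amn encodes amnionless, the membrane anchor of the cubilin receptor. Its region, chr12:111267326-111276859, was the widest private to DP nEnd (9534 bp) and covered the whole gene, with 3769 bp upstream, 1701 bp of exon and 3631 bp of intron. Its peak stood at percentile 18.4, 29.3 and 32.6 by total signal in DP replicates 1, 2 and 3, where the percentile is the rank of a peak among all peaks of its own library and 100 is the strongest. By highest coverage the percentiles were 0.474, 2.57 and 2.39. None of the other 7 libraries had a peak there. Cubn encodes cubilin itself, the endocytic receptor that amnionless carries to the apical membrane. Its region, chr2:13487599-13493230, spans the TSS with 1417 bp upstream and 3837 bp of intron. It had a peak at percentile 3.24 in DP replicate 1 and 15.1 in replicate 2, and none in replicate 3 or in any other library. The total signal was 1.07 and 1.45 times the lowest total listed in these libraries, and by highest coverage the peaks stood at percentile 0.0861 and 0.209.

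**Figure D2:**
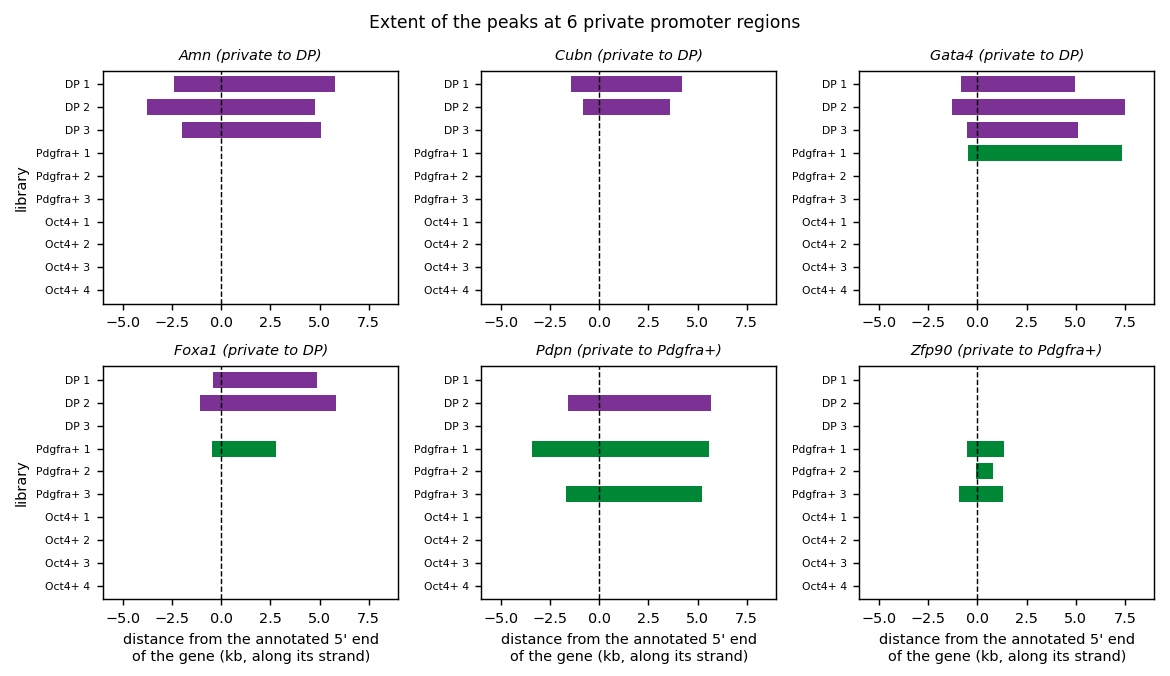
Extent of the peaks in each of the 10 libraries at 6 private regions, as distance in kb from the annotated 5′ end of the gene along its strand (dashed line). Purple is DP, green Pdgfra+ and orange Oct4+ nEnd. Peaks at Amn and Cubn are seen in DP libraries alone, those at Gata4 and Foxa1 also in Pdgfra+ replicate 1, that at Pdpn also in DP replicate 2, and those at Zfp90 in Pdgfra+ libraries alone.

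Of the 32 PrE genes that were marked in any promoter region, 5 belonged to regions private to DP nEnd (Amn, Aqp8, Cubn, Foxa1 and Gata4; 15.6%) and 0 to regions private to Pdgfra+ nEnd. Over all marked protein-coding genes the shares were 1.96% and 1.91%. The gene lists were written with earlier results of these data known, so these shares are a description and were not tested. Gata4, a zinc-finger factor of the PrE, had the highest rank of the regions private to DP nEnd, with percentiles 54.5, 65.1 and 54.4 in DP replicates 1, 2 and 3. Pdgfra+ replicate 1 had a peak at percentile 43.5 in the same place, and no Oct4+ library had one. By the highest coverage within the peak instead of the total, the Gata4 peak stood at percentile 1.81, 9.80 and 8.21 in the DP libraries, where it was 5828, 8760 and 5641 bp wide. The region, chr14:63264211-63272970, holds 2 of the 5 TSS of Gata4 at the annotated 5′ end of the gene. Another promoter region of Gata4 was in the lists of DP and Pdgfra+ nEnd both, so that the region and not the gene was private.

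Foxa1, a pioneer factor of endoderm, had peaks at percentile 1.14 in DP replicate 1 and 15.4 in replicate 2, and at 15.9 in Pdgfra+ replicate 1. Aqp8, a water channel, had peaks at 4.05, 10.8 and 3.49 in the 3 DP libraries and at 10.2 in Pdgfra+ replicate 1. In both genes the peak outside DP nEnd was in that Pdgfra+ library alone. Of the 5 PrE regions, 3 had a peak in all 3 DP libraries and 3 had one in Pdgfra+ replicate 1.

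Each of the other marker and pathway lists held at most 3 private genes. Of the extra-embryonic endoderm genes of the visceral and parietal layers, 1 of 13 marked genes was private to DP nEnd (Lhx1, a LIM homeodomain factor) and 1 to Pdgfra+ nEnd (Stra6, the retinol uptake receptor). Lhx1 had peaks at percentile 14.96, 14.2 and 7.51 in the DP libraries and 25.6 in Pdgfra+ replicate 1. Stra6 had peaks at 32.4 in Pdgfra+ replicate 1 and 0.462 in replicate 3, with none in the other 8 libraries. Its region, chr9:58130957-58136283, lies inside the annotated gene and holds 6 of its 11 TSS. Of 35 marked pluripotency genes and 5 marked fibroblast genes, 0 were private to either population, and with shares of 1.96% and 1.91% over all genes such counts are near the background.

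In the trophectoderm, mesoderm and neural lists, 1 of 14 (Id2, 7.14%), 1 of 8 (Tbx20, 12.5%) and 1 of 2 (Lhx2, 50%) marked genes were private to DP nEnd, against 1.96% over all marked genes, and 0 were private to Pdgfra+ nEnd. Each count is a single gene. Id2, an inhibitor of basic helix-loop-helix factors and a target of BMP signalling, was among the higher ranked, with percentiles 42.6, 42.6 and 29.4 in the DP libraries and 46.4 in Pdgfra+ replicate 1. Tbx20, a T-box factor of the heart, ranked at 2.05 and 2.15 in DP replicates 1 and 2 and at 27.5 in Pdgfra+ replicate 1. Lhx2, a LIM homeodomain factor, ranked at 7.50 and 6.04 in those DP libraries and at 24.2 in Pdgfra+ replicate 1.

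In the TGF-beta, Activin, Nodal and BMP list, 2 of 45 marked genes were private to DP nEnd (Gdf6, a BMP family ligand, and Id2) and 1 to Pdgfra+ nEnd (Chrd, the secreted BMP inhibitor chordin). These shares of 4.44% and 2.22% stand against 1.96% and 1.91% over all marked genes, and the latter is near the background. Gdf6 had peaks at percentile 11.7, 19.6 and 5.24 in the DP libraries and 20.6 in Pdgfra+ replicate 1. The region of Chrd is shared with the start of Thpo, and its peaks stood at 26.5 and 0.737 in Pdgfra+ replicates 1 and 2, at 8.28 in DP replicate 2 and at 31.1 in Oct4+ replicate 1. Igf2r, the receptor that clears IGF2, was the 1 of 53 marked genes of the FGF, PDGF and MAPK list private to Pdgfra+ nEnd (1.89%, at the background), with 0 private to DP nEnd. It had peaks at 28.3 and 5.40 in Pdgfra+ replicates 1 and 3 and at 16.0 in DP replicate 2. No Oct4+ library had a peak at Igf2r.

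The study's lists of OCT4 targets, which come from the expression clusters of the same culture and are no independent evidence of direction, contributed 5 regions. Of 93 marked targets in the DP list, 3 were private to DP nEnd (Htra1, Mppe1 and Zfp608; 3.23%) and 0 to Pdgfra+ nEnd, near the 1.96% and 1.91% over all marked genes. Of 24 marked targets in the Pdgfra+ list, 1 was private to DP nEnd (Dpp4) and 1 to Pdgfra+ nEnd (Lima1), each 4.17% and a single gene. Dpp4, a surface peptidase, had peaks at percentile 9.76, 25.8 and 17.8 in the DP libraries and 24.5 in Pdgfra+ replicate 1. Lima1, an actin-binding protein, had peaks at 20.5 and 9.74 in Pdgfra+ replicates 1 and 3 and at 11.02 in DP replicate 2.

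Of the Pdgfra+ regions, that of Pdpn (podoplanin, a surface mucin-like glycoprotein) was the widest and had the highest value for the lower percentile by total signal of the libraries with a peak. Its region, chr4:143294004-143303003, was 9000 bp wide and had peaks at percentile 55.2 and 39.7 in Pdgfra+ replicates 1 and 3, none in replicate 2, and 1 at 4.91 in DP replicate 2. By highest coverage the Pdgfra+ peaks stood at percentile 9.44 and 0.622. Zfp90, a KRAB zinc-finger gene, ranked at 23.6, 1.54 and 6.17 in Pdgfra+ replicates 1, 2 and 3 within a region of 2294 bp, chr8:106414398-106416691. Its total signal was 2.76, 1.02 and 1.14 times the lowest listed in these libraries, so that by this measure 2 of its 3 peaks were near the lowest listed. By highest coverage they stood at percentile 41.5, 44.6 and 20.5. Of the 29 regions with no peak in the DP and Oct4+ libraries, 23 had peaks in Pdgfra+ replicates 1 and 3, 5 in replicates 1 and 2, and 1 in all 3. They included Csf1, a macrophage growth factor, at percentile 37.6 and 18.0 in Pdgfra+ replicates 1 and 3, and Kcng1, a potassium channel subunit, at 31.8 and 20.7. Csf1 and Kcng1 were chosen after their values were seen.

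**Figure D3:**
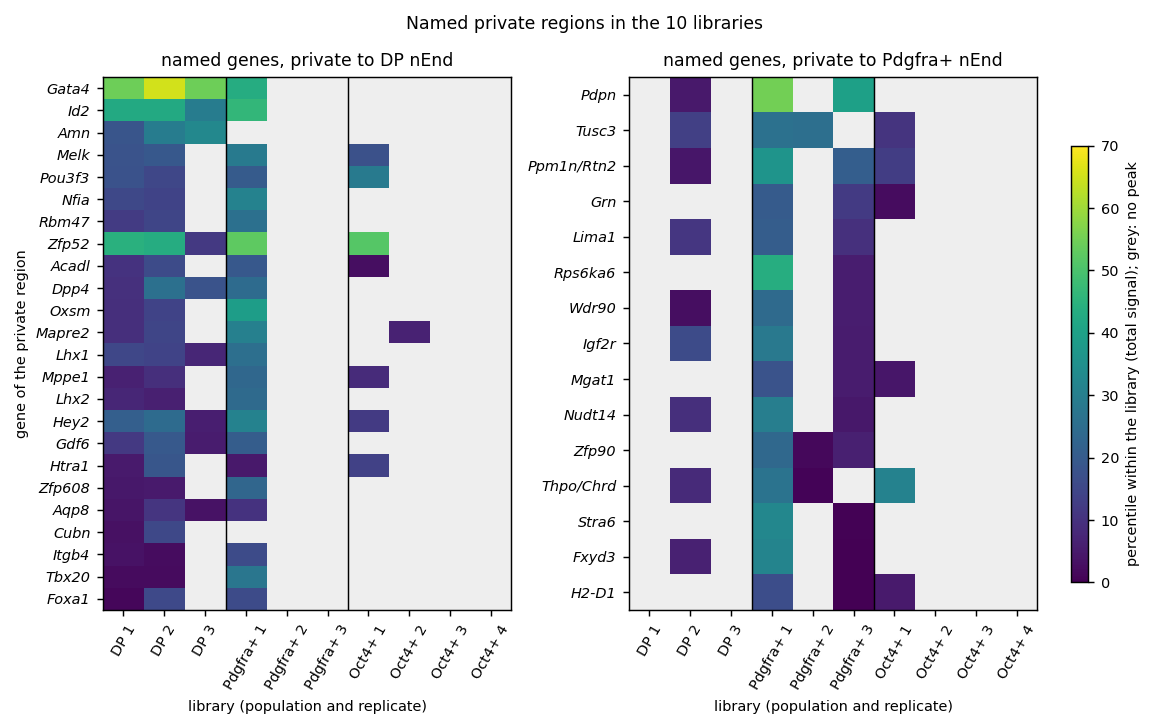
Percentile by total signal, within each library, of the peaks at the named regions private to DP nEnd (left) and Pdgfra+ nEnd (right). Rows are genes and columns the 10 libraries, and grey means that no peak was called. The column of Pdgfra+ replicate 1 is filled for all named genes private to DP nEnd except Amn and Cubn, and Pdgfra+ replicates 2 and 3 are empty for all of them.

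The private regions ranked low in the libraries that defined them. The median percentile of the regions private to DP nEnd was 6.01, 11.2 and 6.17 in DP replicates 1, 2 and 3, and the median total signal was 1.13, 1.32 and 1.13 times the lowest listed there. In Pdgfra+ replicate 1 the same regions stood at a median percentile of 25.6 with 2.96 times the lowest. All promoter regions had medians between 51.1 and 59.9. The regions private to Pdgfra+ nEnd had medians of 25.5, 9.01 and 5.22 in Pdgfra+ replicates 1, 2 and 3 and of 7.15 in DP replicate 2. By highest coverage the median in Pdgfra+ replicate 2 was 48.3, in the library with the narrowest peaks. The lowest listed total was 50231 to 53198 in the DP libraries, 25245 to 27191 in the Pdgfra+ and 15732 to 29610 in the Oct4+ libraries. Ranks and folds therefore compare peaks within a library and not between libraries, and the part of this difference in the calls was not tested.

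Few members ranked higher in all libraries of their own population that had them. The lowest percentile over the libraries of the population was above 20 for 6 regions private to DP nEnd (Gata4, Clic6, Maf, Rab3il1, Id2 and Aldh1l1), all with a peak in the 3 DP libraries. All 6 also had a peak in Pdgfra+ replicate 1. The same held for 10 regions private to Pdgfra+ nEnd, led by Pdpn, Anxa2 and Ptk6, of which 0 had a peak in all 3 Pdgfra+ libraries. Maf, a basic leucine zipper factor, had percentiles 53.0, 49.3 and 38.2 in the DP libraries and 28.2 in Pdgfra+ replicate 1. Clic6, a chloride channel family gene, had percentiles 49.0, 49.3 and 47.8 in the DP libraries and 38.9 in Pdgfra+ replicate 1. Anxa2, a calcium-dependent membrane-binding protein, had 38.7 and 28.3 in Pdgfra+ replicates 1 and 3 and 21.3 in DP replicate 2. Its binding partner S100a10 was private to DP nEnd, at 12.3, 12.9 and 7.04 in the DP libraries, 26.6 in Pdgfra+ replicate 1 and 10.9 in Oct4+ replicate 1. These genes were named for their values.

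**Figure D4:**
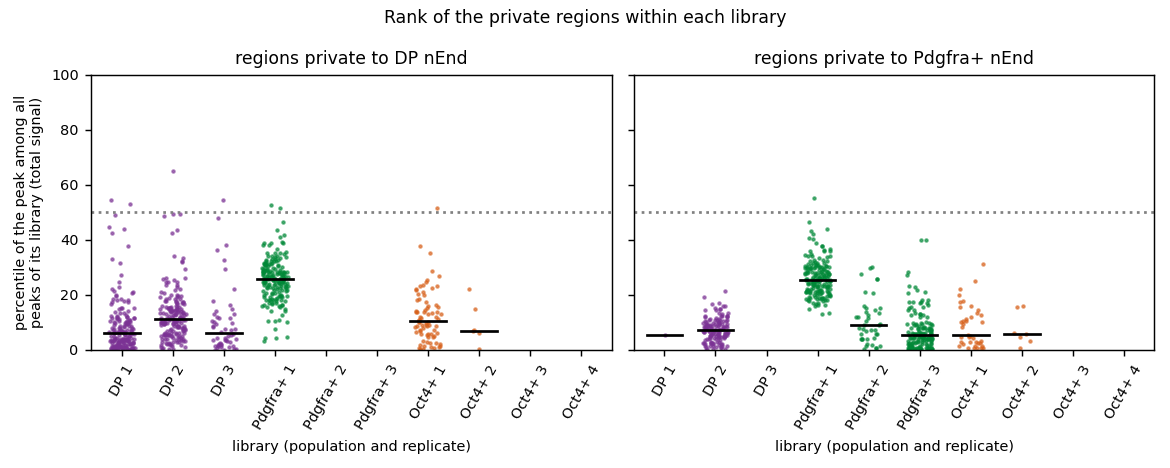
Percentile by total signal of each private region's peak among all peaks of its library (points), for regions private to DP nEnd (left) and Pdgfra+ nEnd (right), with the median as a bar and the 50th percentile as a dotted line. Most points lie below the 20th percentile in the DP libraries, while Pdgfra+ replicate 1 has medians of 25.6 and 25.5.

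The values on either side of the limit of the rule are given without a test, since the rule ties them to the number of libraries with a peak. Just inside, 142 regions private to DP nEnd had peaks in 2 DP libraries and 1 Pdgfra+ library. Just outside, 365 regions of the DP and Pdgfra+ lists alone had a peak in 2 Pdgfra+ libraries, and 224 of these had one in all 3 DP libraries. Among the other 141, with 2 DP libraries as inside, the median percentiles were 7.0 and 12.4 in DP replicates 1 and 2 and 29.9 in Pdgfra+ replicate 1. Inside they were 4.05, 9.86 and 25.1. For Pdgfra+ nEnd, 128 regions lay just inside, with medians of 25.9 in Pdgfra+ replicate 1 and 7.01 in DP replicate 2. Just outside lay 190, of which the same 141 had 2 Pdgfra+ libraries.

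The peaks that the rule allowed in the other populations lay mostly in single libraries. At regions private to DP nEnd, Pdgfra+ libraries had a peak at 33.0% ± 57.1 (SD, n = 3) and Oct4+ replicates 1, 2 and 4 at 14.7% ± 22.7 (SD, n = 3). The difference of 18.3 percentage points was smaller than the SD of either group, and it was -14.7 without Pdgfra+ replicate 1. At regions private to Pdgfra+ nEnd, DP libraries had a peak at 26.9% ± 46.2 (SD, n = 3) and the same Oct4+ libraries at 8.66% ± 11.7 (SD, n = 3). That difference, also 18.3 percentage points, was -8.38 without DP replicate 2. These shares are bounded by the rule and carry no test.

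Libraries that the choice did not use gave a separate reading. For each of 9 pairs of 1 DP and 1 Pdgfra+ library, the regions were chosen again without the pair, and peaks were then counted in both left-out libraries. The consensus of these populations then needed a peak in both remaining libraries. Regions private to DP nEnd had a peak in the left-out DP library more often than in the left-out Pdgfra+ library in 5 of 9 pairs, with differences from -48.7 to 84.3 percentage points and a median of 10.3. Over all promoter regions the DP library also had the higher share in 5 of 9 pairs, and these were the same pairs, so this count is not particular to the private regions. Shares over all promoter regions are those of the full lists, which the left-out libraries helped to call. They are thus not left out in the same way. With DP replicate 3 and Pdgfra+ replicate 1 left out, 50.9% of 528 regions had a peak in the former and 99.6% in the latter, where 84.7% and 96.6% of all promoter regions had one. With DP replicate 2 and Pdgfra+ replicate 2 left out, these values were 98.0% and 13.7% of 51 regions, against 94.97% and 72.7% of all promoter regions. Regions private to Pdgfra+ nEnd had a peak in the left-out Pdgfra+ library more often in 6 of 9 pairs, against 4 of 9 pairs over all promoter regions. The differences ran from -71.3 to 84.2 percentage points with a median of 1.47. Among the 6 were near ties. Pdgfra+ replicate 1 and DP replicate 2 had 68 and 67 of 68 regions, and Pdgfra+ replicate 2 and DP replicate 3 had 18 and 16 of 168. The pairs share libraries and were not tested. In Oct4+ replicate 3, the 1 library outside the deposited lists, 0 of the 363 private regions had a peak, and it had one at 37.8% of all promoter regions. This library held 3477 peaks, the fewest. With the 3477 strongest peaks of each library, 0% of regions private to DP nEnd had a peak in any Pdgfra+ library or Oct4+ replicates 1, 2 and 4. The same held for regions private to Pdgfra+ nEnd in DP and these Oct4+ libraries. The 0 in Oct4+ replicate 3 therefore cannot tell the populations apart.

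**Figure D5:**
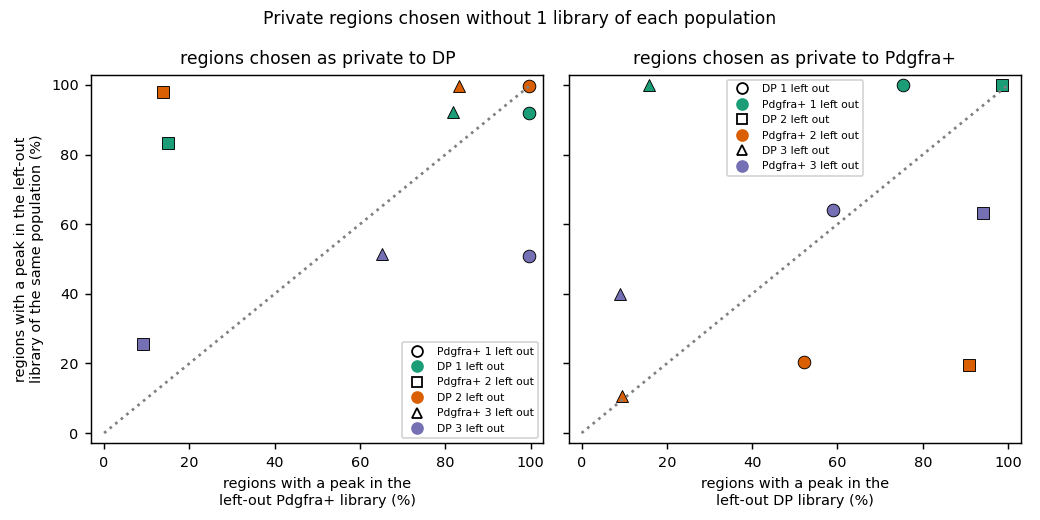
Percent of regions with a peak in the left-out library of the same population (vertical axis) against that in the left-out library of the other population (horizontal axis), for regions chosen as private to DP nEnd (left) and Pdgfra+ nEnd (right). Colour gives the left-out library of the same population, shape that of the other, and the dotted line equal shares. Of the 9 points, 5 (left) and 6 (right) lie above the line.

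The number of private regions changed when a library was left out. The consensus of that population then needed a peak in both remaining libraries, a stricter rule than 2 of 3. By itself this rule can remove private regions of that population and add to those of the others. The direction of these changes was thus set in advance, and the part of the single library was not tested. Rebuilt without DP replicate 1 or 2, DP nEnd kept 51 or 44 private regions. Without Pdgfra+ replicate 1 or 3 it gained them, to 552 or 530. Without Oct4+ replicate 1 or 2 the count was 363 in either case. For Pdgfra+ nEnd, 16 or 41 regions were private without Pdgfra+ replicate 1 or 3, and 351 or 369 without DP replicate 1 or 2. With the 3477 strongest peaks of each library the counts were 76 and 212, but these lists found 1 of the 186 and 0 of the 177 again.

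The private regions had lower median widths than promoter regions at large. The median was 4075 bp in DP nEnd (2169 to 9534) and 3246 bp in Pdgfra+ nEnd (1510 to 9000), against 5332.5 bp over all promoter regions and 5626 bp over the 6322 regions of all 3 lists. Regions of the Oct4+ list alone (4023.5 bp), of the Pdgfra+ and Oct4+ lists (3862 bp) and of the DP and Pdgfra+ lists (4643 bp) were also below that median, so a lower width was not particular to the private regions. Regions of more lists are joined from more peaks, which widens them. In DP replicate 1, peaks at regions private to DP nEnd had a median of 3329.5 bp, against 4031 bp over all its peaks. In Pdgfra+ replicate 1, those at regions private to Pdgfra+ nEnd had 3220 bp, against 3786 bp. The private regions held more than 1 gene at 4.30% and 6.78%, against 17.2% of all promoter regions. The private regions lay on chromosomes 1 to 19 and X. Their share on chromosome 11 was 9.14% (DP) and 14.1% (Pdgfra+) against 8.44% of all, on chromosome 8 it was 1.08% and 5.65% against 5.42%, and on chromosome X 4.30% and 4.52% against 2.30%. These 3 chromosomes were named for their values.

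The reference sequence at their promoters had a lower median CpG content than that of shared regions. In the 300 bp at the TSS the median ratio of observed to expected CpG was 0.723 in DP nEnd (quartiles 0.564 and 0.869) and 0.747 in Pdgfra+ nEnd (0.614 and 0.855), against 0.847 in regions of all 3 lists and 0.821 in all promoter regions. The GC content had medians of 59.8%, 62.7%, 65.0% and 64.3%. Ratios below 0.5 were found at 36 of 186 (19.4%) and 30 of 177 (16.9%), against 10.6% of all promoter regions. Other regions outside the shared list were similar. Regions of the Oct4+ list alone had a median ratio of 0.710 with 27.3% below 0.5, and those of the DP and Pdgfra+ lists 0.757 with 15.2%. The letters TATAAA, on either strand, were present in 6.99%, 5.65% and 4.85% of the windows of DP nEnd, Pdgfra+ nEnd and all promoter regions. GGGCGG was present in 62.9%, 70.1% and 71.2% and CCAAT in 42.5%, 37.3% and 34.2%, and the 3 motifs were searched without regard to overlap. These are descriptions of letters in the reference and were not tested.

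Several member genes had further promoters in other lists. Of the 194 genes private to DP nEnd, 16 (8.25%) had another promoter region in the list of another population, as did 10 of the 189 private to Pdgfra+ nEnd (5.29%). Rbm47, an RNA-binding protein gene, had its private region inside the gene at chr5:66076808-66084339 and another region in all 3 lists. In Lima1 the private region, chr15:99816532-99820767, lay inside the gene as well, and another region was in all 3 lists.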

How the data were processed

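H3K4me3 CUT&Tag peaks of sorted DP, Pdgfra+ and Oct4+ nEnd were analysed in 10 libraries. Per the study's methods, the authors computed coverage with BEDtools (version 2.26.0 in the submitters' processing notes), called peaks for each library against IgG with the stringent setting of SEACR and set consensus peaks with DiffBind. The build in these notes is mm10 (GRCm38), and Bowtie2, SAMtools 1.12 and bcl2fastq 2.19.1 are also named there. The deposited peak files hold the total and the highest signal (coverage) of each peak, which were not scaled between libraries and were used only as ranks within a library. The consensus files give positions. The depth is unknown, so no interval was computed.

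Regions were joined at an overlap of 1 bp with Python 3.11.15, numpy 2.4.6 and pandas 2.3.3. The search for private regions was tested on simulated data. A planned permutation test of the peaks in single libraries of the other populations is given without its p-value, since the rule bounds those peaks. TSS were 54081 starts of protein-coding transcripts of 21670 genes. Symbols matched the RefSeq promoter table for 163 of 194 and 142 of 189 genes.

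The members and gene lists were chosen with earlier results of these data known. Genes were named by these rules: for each population, up to 10 regions with a peak in all 3 own and in none of the other 7 libraries, genes of the marker lists and OCT4 target lists, the 3 widest regions, the 5 highest ranked regions whose gene has a region shared with another population, and 2 regions just inside the limit. Genes outside these rules are named as chosen after their values were seen. Only Amn and Zfp90 met the first rule, and of these Amn had an entry in the sequence table.

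Alternatives were other promoter windows, joining distances, annotations and consensus rules, equal numbers of peaks and leaving out each library. H3K27ac, H3K4me1, H3K27me3, H3K9me3, RNA-seq and reads were not analysed here.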

Additional observations from a re-analysis of the deposited data

Results flagged for a closer look

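Among the 4 Oct4+ libraries, replicate 1 stood apart in its peaks at the regions private to DP nEnd, with 76 against 6, 0 and 0. Its gap to the next library was 0.921 of the whole range, past the limit used to mark a library as far from the others in a group of 4. The rule bounded these counts, since it allowed a peak in at most 1 of replicates 1, 2 and 4 at a region, so the gap is a description and no test. At the regions private to Pdgfra+ nEnd the same library had 39 against 7, 0 and 0, with a gap of 0.821, below that limit. Oct4+ replicate 1 had the most peaks of its population (9144), and the part of this in the count was not tested.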

How the results depend on the processing

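The counts of private regions moved by less than 1.5 times under another promoter window, the 50% cover, the joining of regions within 1000 bp, an Oct4+ consensus from all 4 libraries, the TSS of all annotated genes and, added after seeing the data, all transcripts of protein-coding genes. They were also within 1.5 times with 75% of the peaks (154 and 234), but only 11 of 186 and 9 of 177 regions were found again. With equal numbers of peaks DP nEnd had 76. Peaks in all 3 own libraries left 43 and 16 regions, and no peak elsewhere left 2 and 29. Leaving out each library, with a peak then needed in both remaining libraries, gave 44 to 552 regions for DP nEnd and 16 to 369 for Pdgfra+ nEnd.

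The mean of the library medians of the percentile was 7.80 in DP nEnd (14.4 over regions with a peak in all 3 libraries, 6.09 to 8.70 without each library) and 13.3 in Pdgfra+ nEnd (28.5 by highest coverage, 7.12 to 17.3 without each library). The median width in DP nEnd was 3457 bp for the mean of the library peaks and 5620 bp with equal numbers of peaks. In the whole window of 1100 bp the CpG ratio was 0.553 (DP) and 0.568 (Pdgfra+) and the GC content 51.1% and 52.3%. That longer window reaches farther upstream.

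The differences in single-library peaks turned to -14.7 percentage points without Pdgfra+ replicate 1 and to -8.38 without DP replicate 2, and ranged from -14.7 to 34.8 and from -8.38 to 31.7 over the libraries left out. With equal numbers of peaks no library of either group had a peak at the regions, so the difference was 0. The replicate block over numbers 1, 2 and 3 used Oct4+ replicate 3 in place of 4, and both differences were again 18.3 percentage points. These 2 Oct4+ libraries each had 0 peaks at the regions, and pairing alone cannot change a difference of means. Libraries of the same number did not deviate together in all pairs (correlations of 0.0695, -0.333 and 0.161 between DP and Pdgfra+ nEnd), so the numbers were not taken to pair libraries. The causes of these changes were not tested. Read depth was unknown, and a peak that was not called is not a promoter without H3K4me3.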
